A study of Rattus norvegicus with 24 samples.

Results

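The livers of rats given 1,2,3-trichloropropane were compared with the livers of rats given 1,2-dichlorobenzene, using the 4 arrays labelled with each compound, 8 of the 24 arrays of the series. Male F344 rats, an inbred laboratory strain, received 1,2,3-trichloropropane at 50 mg/kg/day or 1,2-dichlorobenzene at 300 mg/kg/day by daily gavage for 28 days, both in corn oil at 5 ml/kg, and were 5 weeks old per the labels. The series sets 4 carcinogens, trichloropropane among them, beside 2 non-carcinogens, of which dichlorobenzene is 1, and the other 16 arrays hold the remaining compounds. Cy3-labelled liver RNA of each treated rat shared an array with Cy5-labelled RNA pooled from rats given vehicle alone. Each value below is a log2 ratio of 1 treated rat over that pool, or a difference between the means of 4 such ratios, trichloropropane minus dichlorobenzene. The doses differed, so a difference between the compounds and a difference between the doses cannot be told apart. In whole liver, a change in RNA per cell and a change in the number of cells that hold it cannot be told apart either.

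Trichloropropane is a chlorinated propane and dichlorobenzene a chlorinated benzene. The liver oxidises both with cytochromes P450 and couples the products to glutathione, a step catalysed by glutathione transferases; glutathione conjugates of trichloropropane can bind DNA. Reactive intermediates of many chemicals release the transcription factor Nrf2 from its inhibitor Keap1, and Nrf2 then switches on transferases, glutathione synthesis, quinone and aldehyde reductases and export pumps through antioxidant response elements in the DNA. Constitutive androstane receptor (CAR), pregnane X receptor (PXR) and the aryl hydrocarbon receptor drive other detoxifying enzymes.

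The median signal of the treated channel was 437 to 457 intensity units on trichloropropane arrays and 465 to 494 on dichlorobenzene arrays, ranges that did not overlap, and its part in the results was not tested. The treated channel lay well above background for 61.6 to 65.0% of the probes on trichloropropane arrays and for 64.1 to 66.4% on dichlorobenzene arrays. Of 12 genes that mark hepatocytes, 11 were measured, and the treated channel was well above background for all 11 on all 8 arrays. Each compound had a slide of its own, and trichloropropane arrays were scanned on day 3 and dichlorobenzene arrays on day 4, so slide, scan day and compound cannot be told apart. Labels describe a control group for each compound, and nothing says whether the corn oil groups went into 1 pool. The labels give 4 rats for each compound, 1 rat on each array.

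Genes that differed between the livers included antioxidant enzymes, lower after trichloropropane, and perivenous genes, higher after trichloropropane. Of 10010 genes tested, 45 were called between the compounds at an adjusted p under 0.05 (limma, Benjamini-Hochberg) and at least 2-fold, 0.45% of all genes; 20 were higher (0.2%) and 25 lower (0.25%) after trichloropropane. At the adjusted p alone, 485 genes were higher (4.85%) and 801 lower (8%), with 2693 genes at an unadjusted p under 0.05. Against vehicle, 93 genes were called after trichloropropane (0.929%), 32 higher (0.32%) and 61 lower (0.609%), and 160 after dichlorobenzene (1.6%), 77 higher (0.769%) and 83 lower (0.829%). With median centring in place of loess these splits were 31 higher and 368 lower after trichloropropane, and 54 higher and 358 lower after dichlorobenzene. Of the 45 genes that separated the compounds, 28 were called against vehicle under dichlorobenzene alone, 4 under trichloropropane alone, 11 under both and 2 under neither. The 25 genes lower after trichloropropane had a median log2 ratio of 0.52 under trichloropropane and 1.91 under dichlorobenzene. The 20 genes higher after trichloropropane had a median of -0.32 under trichloropropane and -1.77 under dichlorobenzene. All 20 had a mean below 0 under dichlorobenzene, and 15 of the 20 also under trichloropropane.

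**Figure D1:**
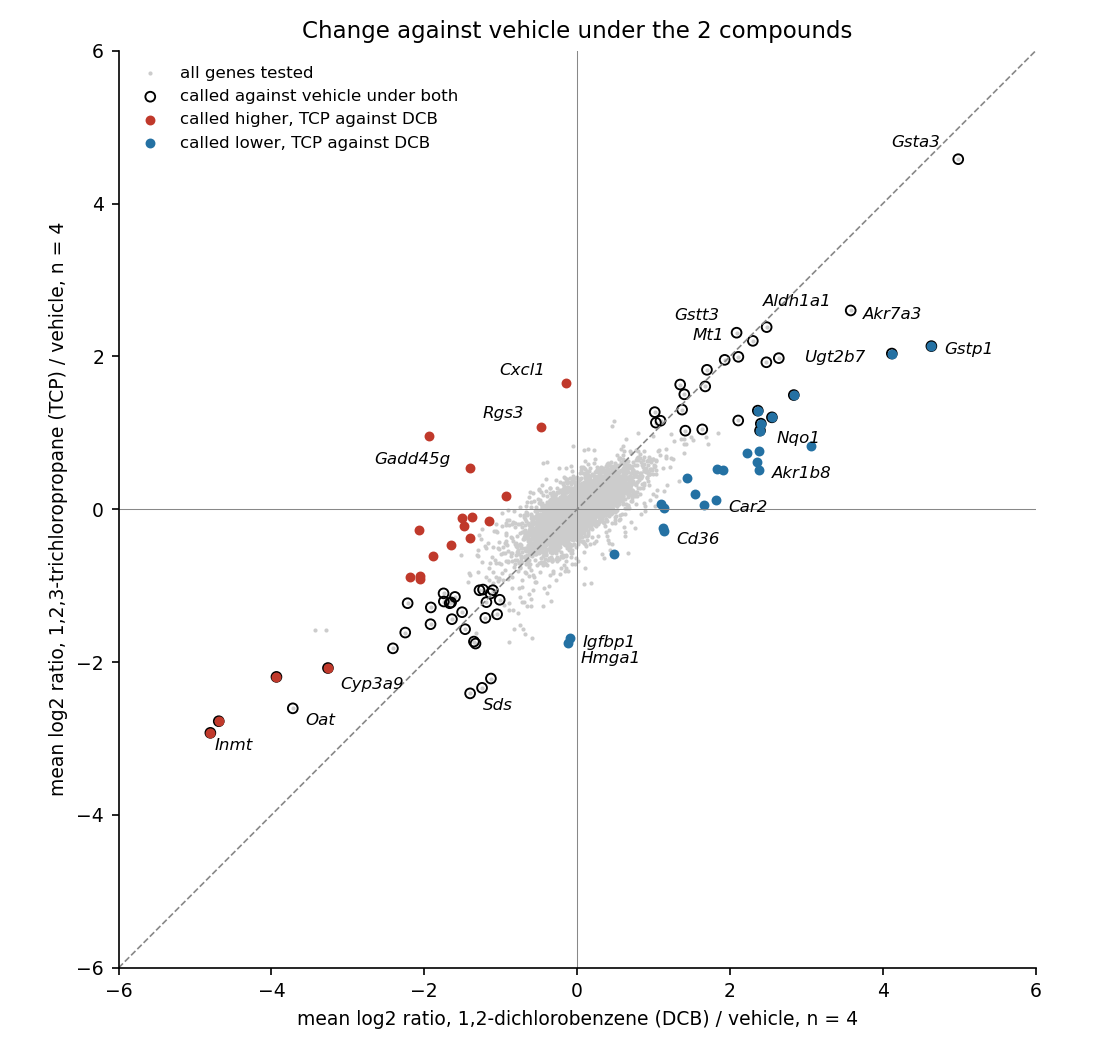
Mean log2 ratio over vehicle of each of the 10010 genes under 1,2,3-trichloropropane (TCP, vertical) and 1,2-dichlorobenzene (DCB, horizontal), n = 4 rats each; the dashed line marks equal change. The 45 genes called between the compounds are coloured, and black rings mark the 58 genes called against vehicle under both, all of which lie in the lower left or upper right of the plot.

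Gstp1, Gpx2 and 4 Nrf2 targets outside glutathione metabolism were called lower after trichloropropane than after dichlorobenzene. Gstp1, the pi-class glutathione transferase used in rats as a marker of altered liver foci, had log2 ratios of 1.46, 2.64, 2.62 and 1.81 in the trichloropropane rats and 4.93, 5.00, 4.39 and 4.21 in the dichlorobenzene rats. Every dichlorobenzene rat exceeded every trichloropropane rat. Ranges without overlap were part of the rule for naming genes and were found for 22.1% of all genes tested. The difference was -2.50 ± 0.20 (SE, n = 4 each, adjusted p = 2.71e-07), a level 5.66-fold higher in dichlorobenzene rats, and the series table gave -2.47. Gpx2, a glutathione peroxidase best known from the gut, had ratios of 1.10, 1.27, 1.16 and 0.95 after trichloropropane, against 2.72, 2.66, 2.32 and 1.91 after dichlorobenzene (difference -1.28 ± 0.18, adjusted p = 0.000186). Both genes passed the call against vehicle under both compounds, so both rose under each, and by more under dichlorobenzene.

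Reductases outside glutathione metabolism showed the same order. Nqo1, a quinone reductase, had ratios of 1.45, 0.96, 0.80 and 0.92 in trichloropropane rats and 2.69, 2.48, 2.30 and 2.10 in dichlorobenzene rats (difference -1.36 ± 0.14, adjusted p = 4.34e-06). Ptgr1, which reduces reactive alkenals, averaged 1.20 ± 0.23 after trichloropropane and 2.55 ± 0.54 after dichlorobenzene (SD, n = 4 each, adjusted p = 0.000119). The 4 rats of each compound did not overlap for either gene, as for 22.1% of all genes tested. Akr1b8, an aldo-keto reductase, had ratios of 0.68, 0.52, 0.47 and 0.40 after trichloropropane and a wide spread of 3.89, 3.17, 1.60 and 0.86 after dichlorobenzene (difference -1.86 ± 0.39, adjusted p = 0.00354). Even its lowest dichlorobenzene rat lay above the trichloropropane rats, although the adjusted p was 0.0616 when the 8 arrays were fitted alone. Me1, the malic enzyme that makes NADPH, averaged 0.74 ± 0.59 after trichloropropane and 2.22 ± 0.20 after dichlorobenzene (adjusted p = 0.0084). With the mean of all kept probes of a gene, the differences of Gpx2 and Me1 were -0.84 and -0.97, under 2-fold.

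**Figure D2:**
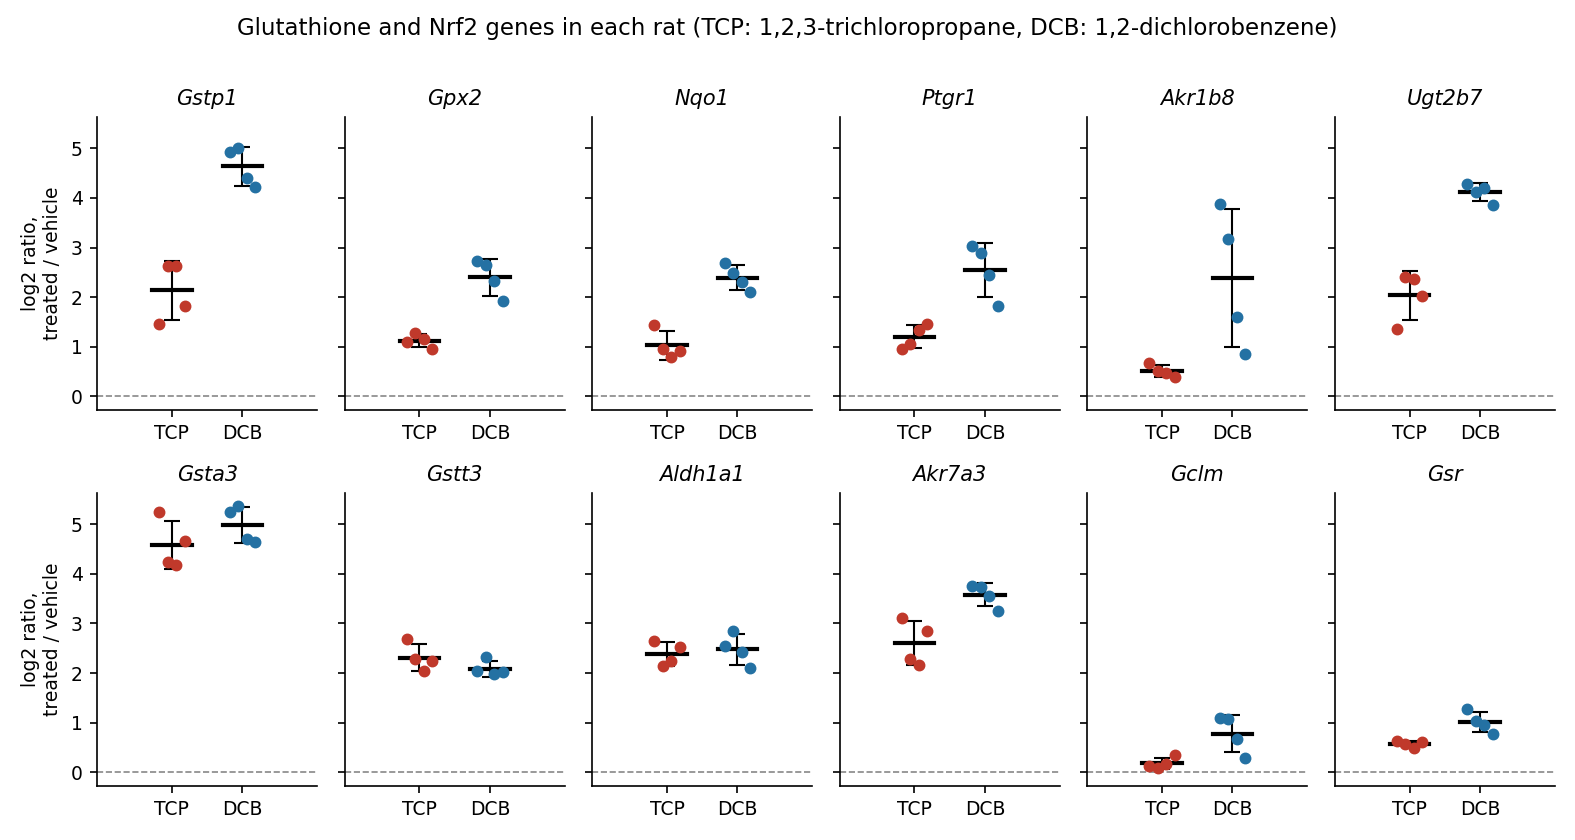
Log2 ratio over vehicle of 12 glutathione and Nrf2 genes in each rat (points), with the mean and SD of 4 rats (lines); TCP is 1,2,3-trichloropropane and DCB 1,2-dichlorobenzene. Gstp1, Gpx2, Nqo1, Ptgr1, Akr1b8 and Ugt2b7 do not overlap between the compounds, as for 22.1% of all genes tested, while Gsta3, Gstt3 and Aldh1a1 do.

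The stretch around the transcription start of 4 of these genes is shown because each holds the antioxidant response element core, spelled TGACNNNGC and searched on both strands; Mt1, described further on, is shown for its metal response elements. The letters are RefSeq's (assembly GRCr8), 250 bases before the start and 50 after it, written 5′ to 3′ on the gene's strand. Capitals in Gstp1, Gpx2, Me1 and Gsta3 mark that core and the AP-1 site spelled TGANTCA. Capitals in Mt1 mark the metal response element core, spelled TGCACNC or TGCGCNC, on either strand.
Gstp1: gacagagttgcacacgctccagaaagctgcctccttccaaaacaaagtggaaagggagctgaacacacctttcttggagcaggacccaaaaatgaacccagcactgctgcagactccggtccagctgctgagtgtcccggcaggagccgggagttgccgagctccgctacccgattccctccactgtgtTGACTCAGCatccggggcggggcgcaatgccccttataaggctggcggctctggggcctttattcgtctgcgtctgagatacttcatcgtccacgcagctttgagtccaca
Gpx2: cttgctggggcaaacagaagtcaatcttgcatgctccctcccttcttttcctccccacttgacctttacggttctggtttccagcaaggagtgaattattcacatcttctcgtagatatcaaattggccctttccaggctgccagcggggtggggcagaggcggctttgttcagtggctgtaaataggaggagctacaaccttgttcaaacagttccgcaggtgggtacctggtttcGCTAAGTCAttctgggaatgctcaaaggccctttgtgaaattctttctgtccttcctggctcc
Me1: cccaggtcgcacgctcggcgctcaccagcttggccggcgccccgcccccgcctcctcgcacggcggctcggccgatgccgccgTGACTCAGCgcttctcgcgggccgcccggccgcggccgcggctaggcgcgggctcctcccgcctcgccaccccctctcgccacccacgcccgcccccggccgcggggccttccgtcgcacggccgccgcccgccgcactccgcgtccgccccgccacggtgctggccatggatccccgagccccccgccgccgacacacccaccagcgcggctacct
Gsta3: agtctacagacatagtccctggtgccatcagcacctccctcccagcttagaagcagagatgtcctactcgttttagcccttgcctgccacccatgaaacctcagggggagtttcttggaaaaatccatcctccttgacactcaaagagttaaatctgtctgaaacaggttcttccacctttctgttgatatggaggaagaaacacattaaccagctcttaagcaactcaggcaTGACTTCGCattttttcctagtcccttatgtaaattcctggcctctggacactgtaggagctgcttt
Mt1: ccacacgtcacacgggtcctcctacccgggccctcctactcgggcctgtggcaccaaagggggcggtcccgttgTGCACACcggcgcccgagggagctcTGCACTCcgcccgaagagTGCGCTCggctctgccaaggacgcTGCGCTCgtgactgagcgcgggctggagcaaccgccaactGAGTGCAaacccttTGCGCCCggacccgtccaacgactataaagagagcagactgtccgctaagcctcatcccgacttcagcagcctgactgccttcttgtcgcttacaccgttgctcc
These lie at chr1:210769656-210769955 (Gstp1, minus strand), chr6:101229984-101230283 (Gpx2, minus strand), chr8:96540195-96540494 (Me1, minus strand), chr9:31154739-31155038 (Gsta3, plus strand, the first of 2 entries) and chr19:10832926-10833225 (Mt1, minus strand).

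Gstp1 and Me1 hold the same 9 letters, TGACTCAGC, in which the antioxidant core and an AP-1 site overlap, at positions -61 to -53 in Gstp1 and -167 to -159 in Me1. Gpx2 has its core on the opposite strand at -13 to -5 and Gsta3 at -17 to -9, both without an AP-1 site. The Mt1 window also holds the antioxidant core, TGACTGAGC at -101 to -93, left in lower case above. The core occurred in 12.1% of the 33469 promoters of the table and the AP-1 site in 7.33%. Among the genes lower after trichloropropane, 15 had a promoter in the table and 5 of these held the core (Gstp1, Gpx2, Me1, App and Hmga1). Among the genes higher, 2 of 10 did. Here a gene counted once if any of its entries held the core, while the 12.1% counts each entry, so the shares are unlike measures. No match was found in the windows of Nqo1, Akr1b8, Gstt3, Akr7a3 or Aldh1a1. A match describes letters and was not tested for binding.

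The wider Nrf2 list moved together by smaller amounts. Of 25 measured Nrf2 targets outside glutathione metabolism, 4 were called lower (Akr1b8, Me1, Nqo1 and Ptgr1), against 0.25% of all genes, and 0 higher. At the adjusted p alone 13 were lower, which is 52.0% against 8% of all genes. The list's median difference was -0.37, against -0.01 over all genes tested, and 23 of the 25 lay below 0. Abcc3, an export pump for conjugates, averaged 0.66 ± 0.07 after trichloropropane and 1.26 ± 0.17 after dichlorobenzene (adjusted p = 0.00423). Ephx1, the microsomal epoxide hydrolase, averaged 0.54 ± 0.15 and Ugdh, which supplies glucuronate, 0.46 ± 0.16 after trichloropropane, against 1.12 ± 0.28 and 0.99 ± 0.26 after dichlorobenzene. Ces1d, a carboxylesterase, ran the other way at -0.82 ± 0.10 after trichloropropane and -1.30 ± 0.15 after dichlorobenzene (adjusted p = 0.000357). Nfe2l2, which encodes Nrf2 itself, averaged 0.54 ± 0.39 and 0.08 ± 0.17 (adjusted p = 0.118), and Keap1 averaged 0.02 ± 0.03 and 0.17 ± 0.05 (adjusted p = 0.0167) after trichloropropane and dichlorobenzene. The vehicle channel for Nfe2l2 differed by -0.47 between the arrays, and its treated channel by -0.02.

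In the supply of glutathione, 1 of 22 measured genes was called (Gpx2), against 0.45% of all genes. At the adjusted p alone 7 were lower (31.8%, against 8% of all genes) and 2 higher (9.09%, against 4.85%). Gclm, the modifier subunit of the enzyme that limits glutathione synthesis, had ratios of 0.12, 0.08, 0.17 and 0.35 in trichloropropane rats and 1.10, 1.07, 0.67 and 0.29 in dichlorobenzene rats (difference -0.60 ± 0.17, adjusted p = 0.0232). The last dichlorobenzene rat fell inside the trichloropropane range. Gsr, glutathione reductase, averaged 0.57 ± 0.06 after trichloropropane and 1.01 ± 0.20 after dichlorobenzene (adjusted p = 0.00167). Gclc, the catalytic partner of Gclm, averaged 0.07 ± 0.10 and 0.44 ± 0.11 (adjusted p = 0.0983).

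Glutathione transferases did not follow Gstp1 as a class. Of 17 measured members, 1 was called, against 0.45% of all genes. At the adjusted p alone 3 were lower (17.6%, against 8% of all genes) and 2 higher (11.8%, against 4.85%), and the median difference was -0.06. Gsta3, an alpha-class transferase, had on its brightest probe the largest mean ratio of the 17 under both compounds. Its ratios were 5.24, 4.24, 4.18 and 4.66 after trichloropropane, against 5.24, 5.36, 4.70 and 4.64 after dichlorobenzene. These ranges overlapped, with a difference of -0.41 and a 95% interval of -1.23 to 0.41 (adjusted p = 0.558). The other probes of Gsta3 averaged 2.87 and 2.85 after trichloropropane, and 3.38 and 3.33 after dichlorobenzene, where Gstp1 averaged 4.64. Gstt3, a theta-class enzyme, averaged 2.31 ± 0.27 after trichloropropane and 2.09 ± 0.16 after dichlorobenzene, with an interval of -0.13 to 0.58. Gstm3, of the mu class, lay lower under dichlorobenzene, at -0.20 ± 0.21 after trichloropropane and -0.93 ± 0.27 after dichlorobenzene (adjusted p = 0.00103). Alpha-class members such as Gsta1 and Gsta5 are close in sequence, and a probe may read more than 1 of them.

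**Figure D3:**
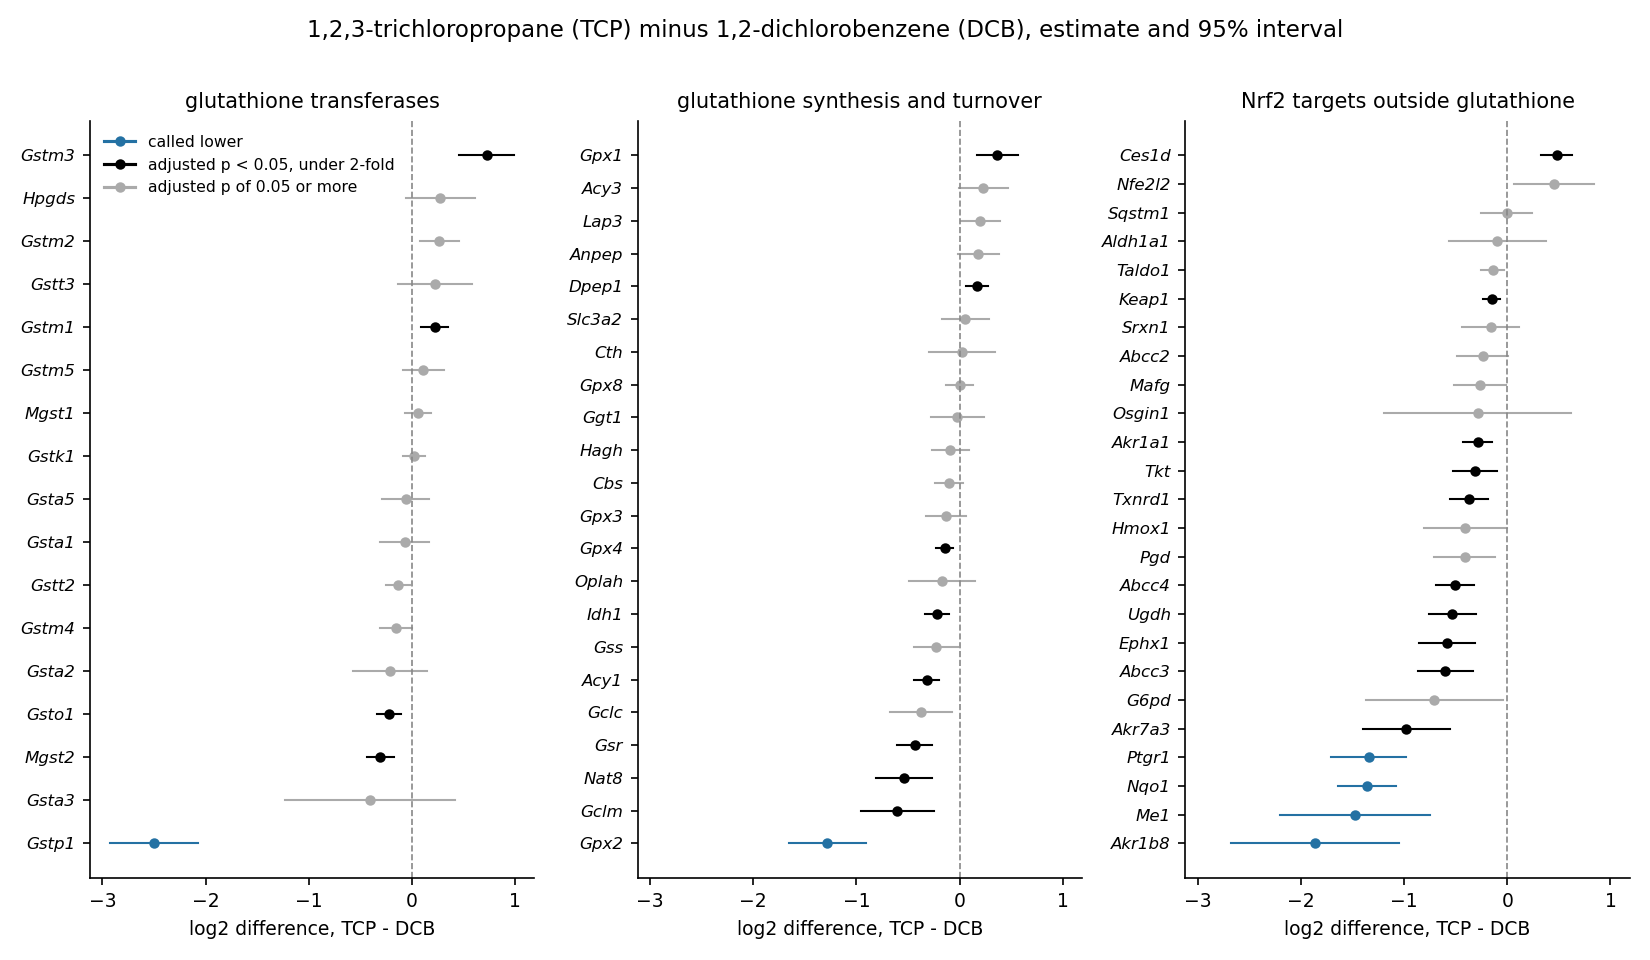
Difference of log2 ratios, 1,2,3-trichloropropane (TCP) minus 1,2-dichlorobenzene (DCB), with its 95% interval for every measured member of 3 lists. In the Nrf2 list 23 of 25 estimates lie below 0, while the transferases other than Gstp1 lie on both sides of 0.

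Other conjugating and oxidising enzymes also separated the compounds. Ugt2b7, a glucuronosyltransferase, had ratios of 1.35, 2.41, 2.37 and 2.02 after trichloropropane and 4.29, 4.12, 4.20 and 3.86 after dichlorobenzene (difference -2.08 ± 0.16, adjusted p = 2.71e-07). Its vehicle channel also differed, by -1.02 between the 2 sets of arrays, and the series table gave a difference of -1.03 with an adjusted p of 0.0664. Ugt2b1, of the same family, averaged 1.29 ± 0.09 after trichloropropane and 2.36 ± 0.21 after dichlorobenzene (adjusted p = 0.000129). Of 16 measured glucuronosyltransferases and sulfotransferases these were the only ones called, against 0.25% of all genes called lower. Both rose against vehicle under each compound. Copies such as Ugt2b7 and its neighbour Ugt2b7l1 resemble each other, and the probe may read both.

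Cytochromes P450 moved in both directions. Cyp2c6v1 averaged 0.07 ± 0.31 after trichloropropane and 1.10 ± 0.20 after dichlorobenzene (difference -1.03 ± 0.14, adjusted p = 0.000129). Leaving out trichloropropane replicate 2, trichloropropane replicate 3 or dichlorobenzene replicate 2 took its difference under 2-fold, to -0.90, -0.99 and -0.93. Cyp1a1, the classic target of the aryl hydrocarbon receptor, was lower after trichloropropane by a narrow margin (difference -1.39 ± 0.46, adjusted p = 0.0491), with overlapping rats. Its treated channel was well above background on 2 of 4 trichloropropane and 4 of 4 dichlorobenzene arrays, and its vehicle channel on 1 of 4 and 0 of 4, so its ratios over vehicle rest on a signal at background. The call was lost in the treated channel alone (-1.11, adjusted p = 0.0773), with the replicate block (0.0675), the 8 arrays alone (0.0615), median centring (0.0825), no background correction (0.0892), no filter on dim probes (0.0549) and the mean of probes (0.0784). It was also lost, at 0.102 to 0.187, without trichloropropane replicate 1, 3 or 4 or dichlorobenzene replicate 1 or 2. Cyp3a9 fell under both compounds, to a mean of -2.08 ± 0.39 after trichloropropane and -3.26 ± 0.49 after dichlorobenzene (difference 1.18 ± 0.34, adjusted p = 0.0262). Its rats did not overlap, as for 22.1% of all genes tested. The adjusted p was 0.088 without trichloropropane replicate 1, 0.0745 without dichlorobenzene replicate 1 and 0.107 without dichlorobenzene replicate 2, and 0.0724 without background correction. Of 24 measured CAR and PXR targets, 1 was called higher and 2 lower, against 0.2% and 0.25% of all genes, with a median difference of -0.12.

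Several genes outside detoxification rose against vehicle under dichlorobenzene and were not called under trichloropropane. Car2, a carbonic anhydrase, had ratios of 0.10, 0.33, 0.08 and 0.00 after trichloropropane and 2.24, 2.23, 1.62 and 1.19 after dichlorobenzene (difference -1.69 ± 0.19, adjusted p = 1.33e-05). App, the amyloid precursor protein, averaged 0.20 ± 0.17 after trichloropropane and 1.55 ± 0.19 after dichlorobenzene (adjusted p = 2.83e-07). Cd36, a fatty acid transporter, averaged -0.29 ± 0.46 and 1.14 ± 0.36, and Tfrc, the transferrin receptor for iron uptake, -0.25 ± 0.37 and 1.13 ± 0.25, after trichloropropane and dichlorobenzene. The rats of the 2 compounds did not overlap for any of these 4 genes, as for 22.1% of all genes tested. Cd36 was the 1 called member among 27 measured targets of PPARalpha and fatty acid oxidation, against 0.25% of all genes called lower. Grin2c, a glutamate receptor subunit, and Samd7, studied in the retina, averaged 0.61 ± 0.14 and 0.76 ± 0.10 after trichloropropane, against 2.36 ± 0.60 and 2.38 ± 0.57 after dichlorobenzene. Both were above vehicle after trichloropropane at the adjusted p alone (limma, 0.00469 and 0.00354), and the series table gave means of 1.61 and 1.56 there. The vehicle channel of Grin2c was well above background on 2 of 4 trichloropropane and 3 of 4 dichlorobenzene arrays. Gucy2c, a receptor guanylate cyclase, was well above background only in dichlorobenzene rats, where it was at least 1.80-fold higher (adjusted p = 0.000755). Hdc, histidine decarboxylase, which completed the 32 called genes with a symbol and was named after its values were seen, averaged -0.58 ± 0.15 after trichloropropane and 0.48 ± 0.19 after dichlorobenzene (adjusted p = 0.000225). Hdc was below vehicle in all 4 trichloropropane rats, under 2-fold (adjusted p = 0.0002 against vehicle).

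Of the 25 genes lower after trichloropropane, 2 were called as decreases against vehicle under that compound. Igfbp1, an insulin-like growth factor binding protein secreted by the liver, had ratios of -1.77, -1.55, -1.84 and -1.59 after trichloropropane and 0.65, 0.39, -0.69 and -0.70 after dichlorobenzene (difference -1.60 ± 0.51, adjusted p = 0.0436). Hmga1, a chromatin protein, had ratios of -2.48, -1.86, -0.47 and -2.17 after trichloropropane and -0.11, -0.12, -0.23 and -0.03 after dichlorobenzene (difference -1.62 ± 0.49, adjusted p = 0.0332). Neither gene overlapped between the compounds, as for 22.1% of all genes tested, and both were called against vehicle under trichloropropane alone. The call on Igfbp1 was lost without any 1 of the trichloropropane arrays and without dichlorobenzene replicate 1 or 2, at adjusted p of 0.0701 to 0.141. Hmga1 lost its call without any array but trichloropropane replicate 3, at 0.0563 to 0.105, and 1 of its other 2 probes had the opposite sign. With the series table and the scanner software's log ratio, the adjusted p (limma) of Hmga1 was 0.0503 and 0.0549. For Igfbp1 it was 0.0527 with the scanner software's log ratio and 0.0513 in the treated channel alone.

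Several genes of the perivenous zone were higher after trichloropropane than after dichlorobenzene, with means further below 0 under dichlorobenzene. In this zone around the central vein, hepatocytes make glutamine and carry out much of the P450 metabolism. Of 10 measured perivenous genes, 3 were called higher, against 0.2% of all genes, and 0 lower. At the adjusted p alone 6 were higher (60.0%, against 4.85% of all genes), and the median difference was 0.79. Inmt, an N-methyltransferase, had ratios of -2.15, -3.72, -2.94 and -2.28 after trichloropropane and -4.82, -4.90, -4.62 and -4.42 after dichlorobenzene (difference 1.92 ± 0.46, adjusted p = 0.00885). It fell under both compounds, and its call was lost without background correction (adjusted p = 0.0992). The 2 other probes of Inmt gave differences of 1.86 and 0.76. Slc1a2, a glutamate transporter, had ratios of -0.64, -1.18, -1.05 and -0.79 after trichloropropane and -2.64, -1.73, -1.95 and -1.90 after dichlorobenzene (adjusted p = 0.00019). Its 1 other probe averaged -0.84 and -0.99, a difference of 0.14. Slc13a3, a dicarboxylate transporter, averaged -0.38 ± 0.30 after trichloropropane and -1.40 ± 0.63 after dichlorobenzene (adjusted p = 0.00382), with its 2 other probes at 0.53 and 0.25. For Slc1a2 the difference fell under 2-fold, to 0.94, without dichlorobenzene replicate 1. For Slc13a3 it fell to 0.97, 0.95 and 0.73 without trichloropropane replicate 1, trichloropropane replicate 4 and dichlorobenzene replicate 4. Without background correction, Slc1a2 (0.66) and Slc13a3 (0.99) also fell under 2-fold. Slc13a3 did so too with median centring (0.90) and in the treated channel alone (0.67, limma adjusted p = 0.0502).

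Growth hormone dependent genes that are higher in male rats included members higher after trichloropropane. Of 17 measured, 2 were called higher, against 0.2% of all genes. At the adjusted p alone 8 were higher and 1 was lower, against 4.85% and 8% of all genes, and the median difference was 0.44. Car3, a carbonic anhydrase abundant in male rat liver, had ratios of -0.53, -0.58, -0.45 and -0.31 after trichloropropane and -1.99, -1.81, -1.55 and -1.24 after dichlorobenzene (difference 1.18 ± 0.28, adjusted p = 0.00925). Dhrs7, a short-chain dehydrogenase, had ratios of -0.75, -0.36, 0.18 and 0.47 after trichloropropane and -1.64, -1.77, -1.05 and -1.59 after dichlorobenzene (adjusted p = 0.00805). Neither gene overlapped between the compounds, as for 22.1% of all genes tested. The other 4 probes of Dhrs7 gave differences of 1.48, 1.42, 0.08 and -0.07. The probe used for Dhrs7 had no symbol of its own and took that of a named probe of the same UniGene cluster. None of the 10 measured genes of the female-biased list passed the adjusted p, where 12.8% of all genes did. Outside these lists, Sez6, known from the brain, averaged -0.88 ± 0.35 after trichloropropane and -2.19 ± 0.34 after dichlorobenzene (adjusted p = 0.000952), with its 1 other probe at -0.21, the opposite sign. Resp18, known from endocrine cells, averaged 0.18 ± 0.10 and -0.93 ± 0.24 after trichloropropane and dichlorobenzene (adjusted p = 0.00019). Mme, the peptidase neprilysin, was not well above background in any dichlorobenzene rat and was at least 1.52-fold higher in trichloropropane rats (adjusted p = 0.000995).

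Cxcl1 and Rgs3 were called as increases against vehicle under trichloropropane alone, with wide spreads between rats. Cxcl1, a chemokine that attracts neutrophils, had ratios of 2.91, 1.05, 0.35 and 2.29 after trichloropropane and -0.46, -0.62, 0.39 and 0.08 after dichlorobenzene (difference 1.80 ± 0.46, adjusted p = 0.0133). The trichloropropane rat at 0.35 lay within the dichlorobenzene range. Cxcl1 was the 1 called member among 24 measured acute phase and chemokine genes, against 0.2% of all genes called higher. Rgs3, a regulator of G protein signalling, had ratios of 1.38, -0.12, 1.44 and 1.63 after trichloropropane and -0.59, -0.23, -0.14 and -0.94 after dichlorobenzene (adjusted p = 0.0304), and 3 of its 5 other probes had the same sign. Gadd45g, a stress-induced growth arrest gene, had ratios of 1.08, -0.18, -0.53 and 1.78 after trichloropropane and -0.24, -1.39, -1.75 and -2.25 after dichlorobenzene (adjusted p = 0.0244). Gadd45g was called against vehicle as a decrease under dichlorobenzene alone, its vehicle channel differed by -0.69, and the treated channel alone gave an adjusted p of 0.163. Calls were lost for Cxcl1 without trichloropropane replicate 1 or dichlorobenzene replicate 2 (0.0565 and 0.0528), for Rgs3 without any array but trichloropropane replicate 2 and dichlorobenzene replicate 3 (0.0572 to 0.0925), and for Gadd45g without trichloropropane replicate 1 or 4 or dichlorobenzene replicate 2, 3 or 4 (0.0587 to 0.0929).

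**Figure D4:**
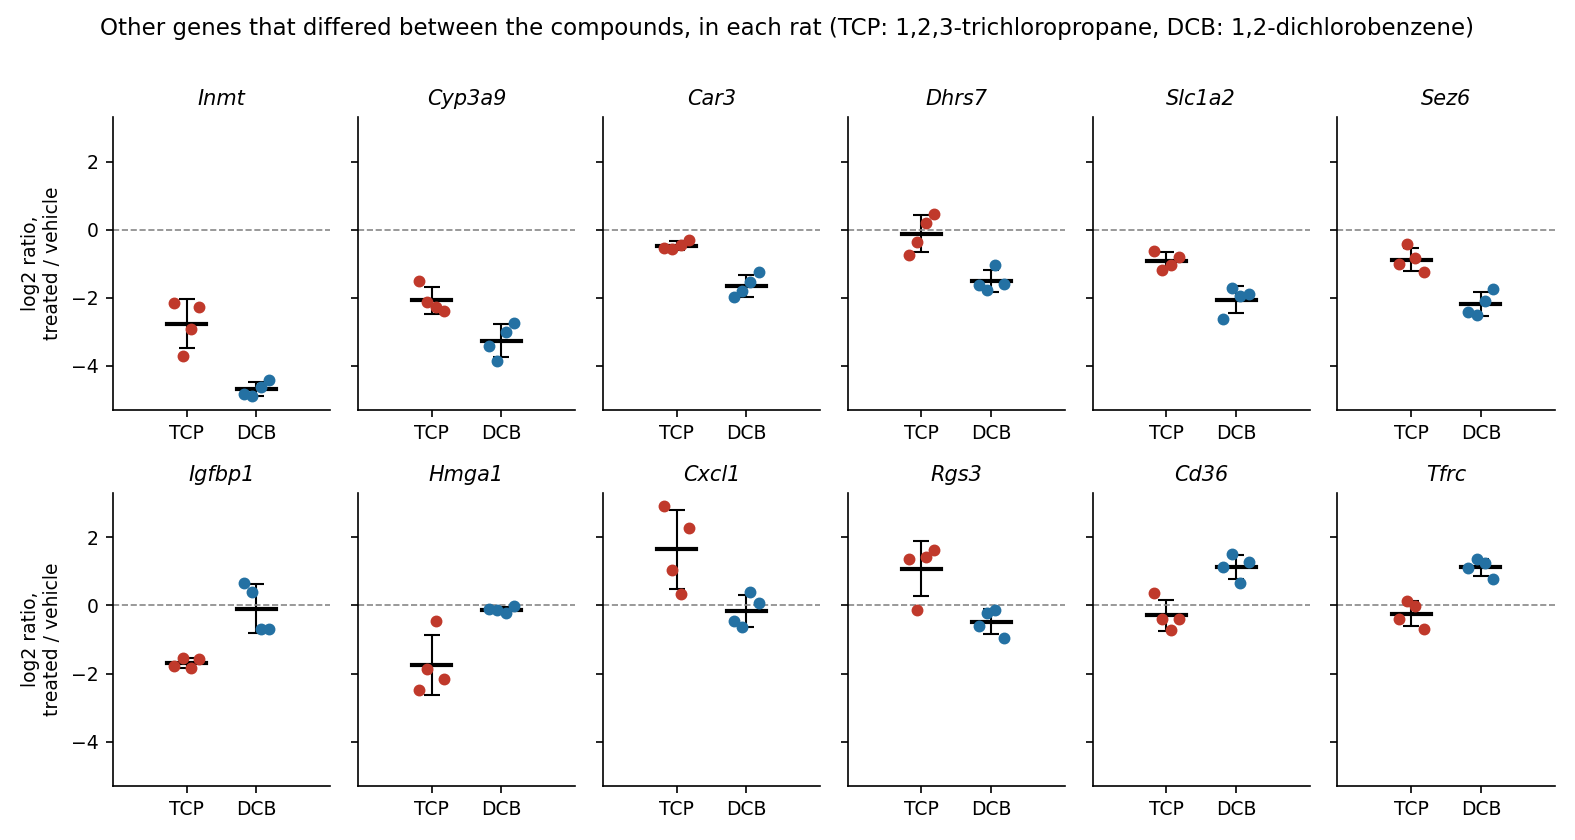
Log2 ratio over vehicle of 12 genes outside the glutathione and Nrf2 lists in each rat (points), with the mean and SD of 4 rats (lines); TCP is 1,2,3-trichloropropane and DCB 1,2-dichlorobenzene. Inmt, Cyp3a9 and Slc1a2 lie below 0 in all 8 rats and further below under DCB, while Igfbp1 and Hmga1 are low under TCP.

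The changes that both compounds made against vehicle form the background to these differences. Of the genes called against vehicle, 58 were called under both compounds in the same direction (0.579% of genes), 27 higher and 31 lower, and 0 in opposite directions; at the adjusted p alone, 3153 genes shared a direction and 79 did not. The 2 counts come from 1 fit, and where the vehicle pools were shared they rest on the same control RNA. The 27 shared increases had a median of 1.61 under trichloropropane and 2.11 under dichlorobenzene, and the 31 shared decreases a median of -1.42 and -1.60. Of the 58, 18 lay further from 0 under trichloropropane and 40 under dichlorobenzene, and 15 differed between the compounds at the adjusted p alone.

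Shared increases without a call between the compounds included detoxifying, metal-binding and serine-making genes. Aldh1a1, a retinaldehyde dehydrogenase, averaged 2.38 ± 0.24 after trichloropropane and 2.48 ± 0.31 after dichlorobenzene, with a 95% interval of the difference of -0.57 to 0.38. Akr7a3, the aflatoxin aldehyde reductase, averaged 2.60 ± 0.44 after trichloropropane and 3.58 ± 0.23 after dichlorobenzene, a difference of -0.98 that passed the adjusted p (0.00309) and missed 2-fold. Mt1, a metallothionein, whose window above holds 6 metal response element cores against a share of 24.2% of promoters with any, had ratios of 2.09, 0.91, 2.36 and 2.62 after trichloropropane and 2.32, 2.04, 2.17 and 1.92 after dichlorobenzene. The trichloropropane rats spread around the dichlorobenzene rats, with an interval of -0.89 to 0.66. Phgdh, the first enzyme of serine synthesis, averaged 1.98 ± 0.41 and 2.64 ± 0.21 after trichloropropane and dichlorobenzene, with an interval of -1.42 to 0.10. Asns, Psat1 and Fgf21 are targets of the amino acid response factor ATF4 and were named after their values were seen. The means of Asns and Psat1 were 1.30 and 1.16 after trichloropropane, against 1.37 and 1.09 after dichlorobenzene, and Fgf21 ran from 0.99 to 1.89 over trichloropropane rats and from 0.48 to 1.85 over dichlorobenzene rats. The Fgf21 promoter held the amino acid response element TGATGNAA, present in 3.98% of promoters, and those of Asns, Phgdh and Psat1 did not.

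Shared decreases were led by Inmt and Cyp3a9, described above, and by Oat, ornithine aminotransferase. Oat had ratios of -2.13, -2.70, -2.78 and -2.81 after trichloropropane and -4.32, -3.86, -3.83 and -2.88 after dichlorobenzene (difference 1.12 ± 0.40, adjusted p = 0.0688). The ranges did not overlap, as was so for 22.1% of all genes tested. Mup4l3, a major urinary protein gene with near-identical copies, averaged -1.61 ± 0.36 after trichloropropane and -2.25 ± 1.01 after dichlorobenzene. Sds, serine dehydratase, named after its values were seen, averaged -2.41 ± 0.25 and -1.40 ± 0.77, and its vehicle channel was 1.91 higher on the trichloropropane arrays, so that its treated channel alone was 0.90 higher there.

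The p53 and cell cycle lists held no called gene between the compounds. The list of liver foci, fetal and progenitor genes held 1 among 16 measured, Gstp1, against 0.25% of all genes called lower. Of 20 measured genes of the p53 and DNA damage list and 23 of the cell cycle list, 0 were called by limma, where 0.45% of all genes were, and 3 of each were past the adjusted p alone, where 12.8% of all genes were. Zmat3, a p53 target, averaged 0.07 ± 0.14 after trichloropropane and 0.53 ± 0.06 after dichlorobenzene (adjusted p = 0.000459). Phlda3, of the same list, ran the other way, at -0.27 ± 0.16 after trichloropropane and -0.68 ± 0.19 after dichlorobenzene (limma, adjusted p = 0.0349). Ephx1, given above, was lower after trichloropropane. Pcna, the sliding clamp of DNA replication, averaged 0.47 ± 0.16 and 0.94 ± 0.39 (adjusted p = 0.024), and Aurka, a mitotic kinase, 0.13 ± 0.07 and -0.35 ± 0.13 (adjusted p = 0.0125), after trichloropropane and dichlorobenzene. In all, 11 of 25 pathway lists had no called member. Of their 182 measured genes, 29 were past the adjusted p, where 12.8% of all genes were, and 61 were at an unadjusted p under 0.05. These lists included cholesterol synthesis, the unfolded protein response, the ATF4 list and the circadian clock. Secreted proteins of hepatocytes had 0 of 29 called but 27 above 0, with a median difference of 0.18, while 53.3% of all genes lay below 0. All 5 measured cytosolic ribosomal protein genes were lower at the adjusted p alone, where 8% of all genes were. Their differences were -0.40 to -0.27, and 21 more of the list were not measured. The 9 lists of markers for single cell types had 0 of 63 measured genes called, where 0.45% of all genes were. Of the 63, 6 were past the adjusted p, where 12.8% of all genes were, and 22 were at an unadjusted p under 0.05. Mean ratios of macrophage markers ran from -0.45 to -0.02 over trichloropropane rats and from -0.69 to -0.20 over dichlorobenzene rats. The part of cell composition in the differences above was not tested.

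Because each ratio has vehicle RNA below it, the vehicle channel was compared between the 2 sets of arrays. It differed by at least 2-fold at an adjusted p under 0.05 for 23 genes (0.23%), 21 higher on trichloropropane arrays and 2 lower. This test sets repeat readings of pooled RNA against each other and covers the spread of arrays only. Of the 45 genes called between the compounds, 24 differed in the vehicle channel at an adjusted p under 0.05 (limma). A vehicle channel difference of 0.5 or more was found for 9. For the 24 and the 9, no share over all genes was counted. In the vehicle channel, 2 of the 45 were also called, Ugt2b7 and an unnamed gene. That unnamed gene, known here only by a UniGene cluster, had the largest difference of the 45, 2.90, with means of 0.96 ± 0.34 after trichloropropane and -1.94 ± 0.33 after dichlorobenzene, with a vehicle channel difference of -2.07. All 45 kept their sign in the treated channel alone, and 29 were called there in the same direction (63 genes called in all, 0.629%). For Gstp1 the vehicle channel differed by -0.46 and the treated channel by -2.96, and for Nqo1 by -0.03 and -1.40.

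**Figure D5:**
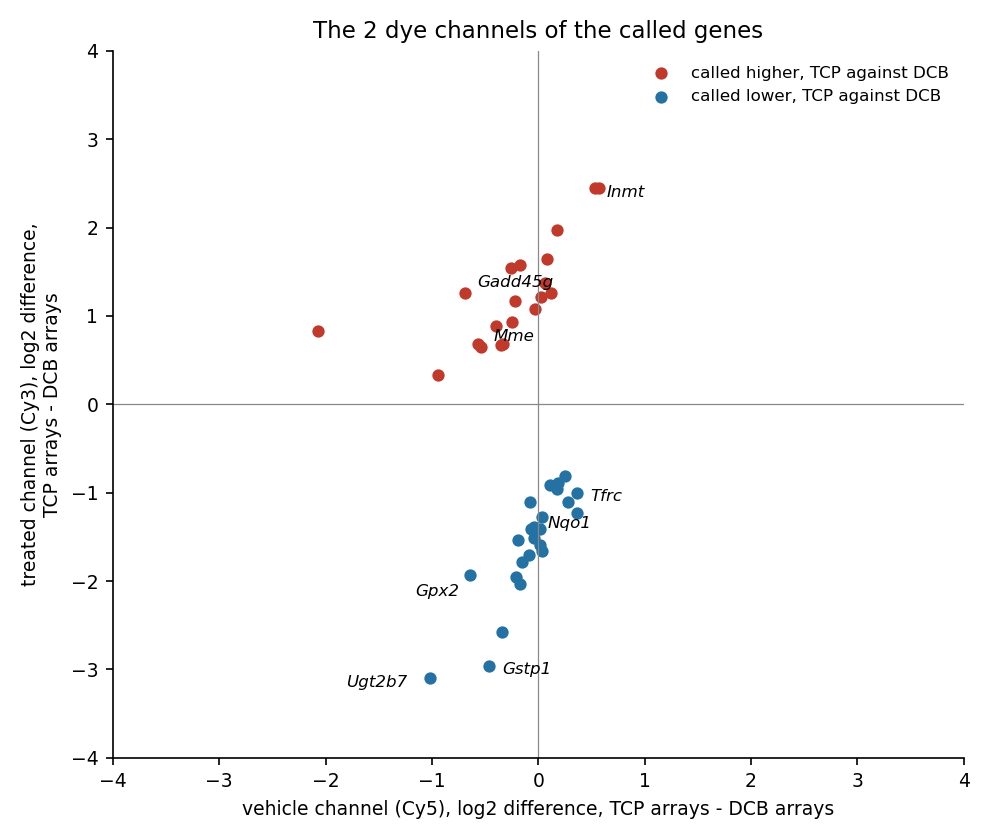
For the 45 genes called between the compounds, the log2 difference between trichloropropane (TCP) and dichlorobenzene (DCB) arrays in the treated channel (vertical) and in the vehicle channel (horizontal). All 20 genes called higher lie above 0 and all 25 called lower lie below 0 in the treated channel, and Ugt2b7, Gpx2 and Gadd45g are among those that also differ by over 0.5 in the vehicle channel.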

How the data were processed

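Per the file headers, the deposited scanner files gave, for both dyes, mean signal and median local background as linear intensity, beside the software's own log10 ratio. The deposited series table held log2 ratios; set against the scanner signals, they ran as treated over vehicle and correlated at 0.991 to 0.995 with the log2 ratio of processed signals on the 8 arrays (column medians 0.0454 to 0.0759), and the authors' normalization is not given in the sources used here. Per the submitters' processing notes, the scans went through Agilent Feature Extraction 9.1.3.1. The hybridised material was linearly amplified cRNA, per the labels' protocols. Channel 1 (Cy5) held pooled vehicle RNA and channel 2 (Cy3) 1 treated rat, with no dye swap.

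Signals were corrected with normexp (offset 50), scaled with loess within arrays, with control spots at weight 0 and outlier spots left out (0 to 74 per array), and the 2 spots of a probe were averaged (R 4.3.3, limma 3.58.1). Of 21900 probes, 16085 were kept, those well above background in 1 dye on each of the 4 arrays of some compound. Symbols were updated through RefSeq (GRCr8), probes without a symbol took that of a named probe of the same UniGene cluster (3630 probes), and the brightest probe stood for each of 10010 genes, of which 4725 had a symbol; entries without one may read the transcript of a named gene. Intensities carry no counts, so the number of arrays limits the precision.

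All 24 arrays were fitted with lmFit and eBayes, 1 mean per compound (18 residual degrees of freedom, 2.90 prior). A call needed a p under 0.05 after Benjamini-Hochberg adjustment over all genes and at least 2-fold. Tests against vehicle treat the pool as 1 control sample and cannot include its spread. On simulated data for this comparison, with 200 changed genes, 99% of genes changed by 1.5 and 99% of those changed by 2.5 (log2) were recovered, with 0 false calls. That recovery holds for the simulated spread alone. In the data, genes with a wide spread had less margin. Rgs3 and Hmga1, at 1.56 ± 0.46 and -1.62 ± 0.49 (SE), lost their calls without most single arrays. Alternatives were the series table, the scanner software's log ratio, median centring, no background correction, other probe filters, the mean of a gene's probes, the 8 arrays alone, the treated channel alone, a replicate block and leaving out each array. Where a compound's treated channel was not well above background on any of its arrays, its level was set to the lowest signal well above background and the difference is given as "at least".

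Named genes were the 15 largest called differences in each direction with a symbol and no overlap of the 4 and 4 rats (10 were available among the higher), up to 5 called members of each of 34 gene lists, measured members of 3 glutathione and Nrf2 lists, and the 12 shared changes whose smaller value was largest. The comparison, the members and the lists were chosen with earlier results of these data known. The 4 other compounds entered the fit and were not compared.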

Additional observations from a re-analysis of the deposited data

Results flagged for a closer look

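In 3 of the 78 groups of 4 rats that were tested for a stray array, over 39 genes, 1 rat stood apart from the other 3; about 1 in 20 such groups would be flagged by chance. Rgs3 had a log2 ratio of -0.12 in trichloropropane replicate 2, while the other 3 trichloropropane rats lay between 1.38 and 1.63. Cyp2c6v1 had 1.40 in dichlorobenzene replicate 2, with the others between 0.98 and 1.04. Oat had -2.13 in trichloropropane replicate 1, with the others between -2.81 and -2.70.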

How the results depend on the processing

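All 45 genes called between the compounds kept their sign under each alternative in which they were measured, except 1 of the 39 measured under the filter for probes well above background in both channels. The 45 calls became 83 with the series table (35 higher, 48 lower; 42 of the 45 kept) and 82 with the scanner software's log ratio (36 and 46; 41 kept). Without background correction 12 were higher, and in the treated channel alone 32 were higher. Leaving out 1 array gave 32 to 60 calls, 12 to 24 higher and 20 to 40 lower: 12 higher without trichloropropane replicate 1, 13 without trichloropropane replicate 4, 12 without dichlorobenzene replicate 1 or 2, and 40 lower without dichlorobenzene replicate 4. The cause was not tested.

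Against vehicle, trichloropropane calls became 212 with the series table (80 higher, 132 lower), 213 with the scanner log ratio (83 and 130) and 399 with median centring (368 lower), with 18 higher without background correction. Dichlorobenzene calls became 278 (145 and 133), 281 (149 and 132), 412 with median centring (358 lower) and 106 without background correction (48 higher). Shared calls became 111, 114 and 266 with the series table, scanner log ratio and median centring. Leaving out 1 array gave 79 to 112 trichloropropane calls (30 to 35 higher, 49 to 77 lower), 143 to 205 dichlorobenzene calls (65 to 113 and 78 to 92), 53 to 64 shared and 21 to 26 in the vehicle channel.

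Same-numbered rats of the compounds had deviations correlated at 0.03, -0.06, 0.25 and -0.06, so the numbers share no more than a label. With the replicate block 44 genes were called (19 higher, 25 lower), 43 of the 45 among them. Of the named genes' values under alternatives, 877 stayed on their side of the threshold, 82 in 23 comparisons lost the call and 0 reversed. The mean of probes also took Dhrs7 (0.86), Sez6 (0.55), Slc1a2 (0.64), Slc13a3 (0.60), Resp18 (0.82) and Mme (0.97) under 2-fold. It took Rgs3 to an adjusted p of 0.0658. The treated channel alone took Car3 (0.93), Cyp2c6v1 (-0.92), Ugt2b1 (-0.89), Slc13a3 (0.67) and Mme (0.64) under 2-fold. Without background correction, Slc1a2 (0.66), Slc13a3 (0.99), Resp18 (0.82), Mme (0.51), Gucy2c (-0.55) and Cyp2c6v1 (-0.98) fell under 2-fold. So did Ugt2b7 against vehicle after trichloropropane (0.88). With median centring, Resp18 (0.998) and Slc13a3 (0.90) did. The scanner log ratio took Ugt2b7 to -0.96. Doses, slides and scan days separate the compounds as fully as the compounds do. A low signal limits Gucy2c, Mme and Cyp1a1, and Grin2c in the vehicle channel.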

Other observations

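No gene was called in opposite directions against vehicle, though 79 genes passed the adjusted p alone that way, Hdc and Hsp90aa1 among them. Hsp90aa1, a cytosolic chaperone, averaged -0.53 after trichloropropane and 0.43 after dichlorobenzene (difference -0.96, adjusted p = 0.00299). Gdf15, a stress-induced hormone, averaged -0.63 and 0.35 (adjusted p = 0.00714), and Glul, the glutamine synthetase of the innermost perivenous hepatocytes, averaged -0.04 and -0.98 after trichloropropane and dichlorobenzene (adjusted p = 6.42e-05). These genes were named after their values were seen, and all 3 differences were under 2-fold.

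The dichlorobenzene rats were not alike in the size of the response. Of the 77 genes called higher against vehicle under dichlorobenzene, 52 (67.5%) were higher in both replicate 1 and replicate 2 than in replicates 3 and 4, and 1 was lower in both; over all 10010 genes these shares were 22.5% and 19.2%. Of the 83 genes called lower, 44 were further down in replicates 1 and 2. Among the 25 genes lower after trichloropropane, 17 had this order in the dichlorobenzene rats, Akr1b8 and Gstp1 among them. What replicates 1 and 2 shared is not given in the labels, and the cause was not tested.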
